A study of Mus musculus with 4 samples.

Results

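RNA of 10 genes of the transforming growth factor beta (TGF-β) pathway was measured in whole mouse liver: the ligands Tgfb1, Tgfb2 and Tgfb3, the latent TGF-β binding proteins Ltbp1 and Ltbp2, the receptors Tgfbr1, Tgfbr2 and Tgfbr3, and the feedback genes Smad7 and Skil. They were chosen by gene symbol, and all 10 were found among the 13903 genes of the table. All mice were OGT-Floxed on the C57BL/6J background, meaning that the gene of O-GlcNAc transferase (OGT) carried sites for Cre recombinase, and all were on a CDE (choline-deficient, ethionine-supplemented) diet, a diet that damages hepatocytes. Animals labelled OGT-KO received AAV8-TBG-CRE and animals labelled control received AAV8-TBG-eGFP. The TBG promoter is active in hepatocytes, so the other cells of the liver keep an intact Ogt gene. The livers had no recovery or 7 days of recovery, and age and sex are not given in the sources used here. For each of the 4 conditions, equal amounts of RNA from 3 mice were pooled into 1 library, so no value has a replicate error and no p-value is given.

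Levels are in CPM, the reads of a gene for every 1000000 reads on the listed genes. The libraries hold 19972699 to 22866431 such reads, and 3 reads, taken as the floor of detection, are worth 0.131 to 0.150 CPM. Intervals are 95% counting intervals, exact Poisson for a level and exact binomial for a fold, and they cover counting error only, not the differences between mice. Ogt, the targeted gene, had 64.7 CPM in the control library and 55.3 CPM in the OGT-KO-labelled library with no recovery, and 55.7 and 77.7 CPM after 7 days. The median gene was itself higher in the OGT-KO-labelled libraries, by 0.65 (no recovery) and 0.61 (7 days) on the log2(CPM + 1) scale, and by 0.025 and 0.019 under median-ratio scaling, which sets each library by the median of its genes' ratios to a common reference. Differences between the labels of the 10 genes and of the gene lists are therefore given under this second scaling as well. Lymphocyte and platelet markers are left out of this and are given as sums only. The order of Ogt after 7 days turned with the scaling: its median-ratio-scaled levels were 81.4 CPM in the control library and 42.3 in the OGT-KO-labelled library with no recovery, and 72.0 and 62.5 after 7 days. The labels are used below as labels only.

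TGF-β is made as a dimer that stays bound to its own propeptide and, through it, to a latent TGF-β binding protein in the extracellular matrix. Once released, the ligand binds the type II receptor, which recruits and phosphorylates the type I receptor, and this in turn phosphorylates SMAD2 and SMAD3, which enter the nucleus with SMAD4. In injured liver the pathway is best known for driving hepatic stellate cells to become matrix-producing myofibroblasts, and also for limiting hepatocyte division.

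The start regions of ligand and binding protein genes are shown because these genes had the largest folds between the libraries. RefSeq windows (GRCm38.p6), each running from 250 bases before to 50 bases after a transcription start, were matched by symbol to 6 of the 10 genes and gave 8 windows. Tgfb3, Tgfbr3, Smad7 and Skil had no window. They are read 5′ to 3′ on the strand of the gene. Tgfb1 lies at chr7:25686752-25687051 on the plus strand, Tgfb2 at chr1:186705940-186706239 on the minus strand, Ltbp1 at chr17:75005279-75005578 on the plus strand and Ltbp2 at chr12:84876442-84876741 on the minus strand. Capitals mark GC boxes in Tgfb1 and Ltbp2, a TATA motif in Tgfb2 and a cyclic AMP response element (CRE) in Ltbp1.
Tgfb1: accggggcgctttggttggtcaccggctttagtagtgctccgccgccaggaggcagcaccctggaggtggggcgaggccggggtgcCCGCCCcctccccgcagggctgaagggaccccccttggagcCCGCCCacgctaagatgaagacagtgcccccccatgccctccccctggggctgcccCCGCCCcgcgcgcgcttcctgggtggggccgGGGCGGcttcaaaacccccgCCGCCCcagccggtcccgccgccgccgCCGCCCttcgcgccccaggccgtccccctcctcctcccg
Tgfb2: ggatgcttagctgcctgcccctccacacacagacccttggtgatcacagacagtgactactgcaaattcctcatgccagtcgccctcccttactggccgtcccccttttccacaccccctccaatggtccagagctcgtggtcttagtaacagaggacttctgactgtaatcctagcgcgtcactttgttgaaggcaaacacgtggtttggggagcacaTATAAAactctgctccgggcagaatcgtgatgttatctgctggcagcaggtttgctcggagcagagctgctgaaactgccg
Ltbp1: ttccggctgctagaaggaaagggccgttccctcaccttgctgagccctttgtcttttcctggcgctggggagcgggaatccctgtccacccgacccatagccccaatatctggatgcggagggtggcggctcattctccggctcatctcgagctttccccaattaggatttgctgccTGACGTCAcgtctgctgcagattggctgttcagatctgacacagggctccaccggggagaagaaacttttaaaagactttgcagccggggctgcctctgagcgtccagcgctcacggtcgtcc
Ltbp2: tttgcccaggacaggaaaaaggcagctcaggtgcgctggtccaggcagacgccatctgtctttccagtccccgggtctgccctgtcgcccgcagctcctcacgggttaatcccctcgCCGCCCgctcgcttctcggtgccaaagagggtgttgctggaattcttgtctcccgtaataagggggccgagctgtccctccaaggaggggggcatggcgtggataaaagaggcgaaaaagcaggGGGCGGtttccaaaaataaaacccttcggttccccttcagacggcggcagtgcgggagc

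The windows shown differed in their make-up. Tgfb1 had 77.0% G and C and 6 GC boxes, against a median of 52.7% over the 32851 mouse windows. Tgfb2 had 54.3% G and C, no GC box and 1 TATA motif, whose first base lies 31 bases before the start. The CRE of the Ltbp1 window shown begins 73 bases before the start, while a second Ltbp1 window, at chr17:75178531-75178830 on the plus strand, held none of the motifs searched. The GC boxes of Ltbp2 begin 133 and 9 bases before its start. All windows were searched on both strands for the GC box (GGGCGG), found in 35.7% of all windows, for the letters TATAAA in 13.6%, for the CRE (TGACGTCA) in 1.79%, for the AP-1 motif (TGANTCA) in 7.81%, for the TEAD motif (GGAATG) in 14.7% and for the palindromic SMAD element (GTCTAGAC) in 0.213%. The letters of the AP-1, TEAD and SMAD motifs were in none of the 8 windows. No marked match overlaps another, and a match of letters is a description of the window only.

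Each of the 10 genes was higher in both OGT-KO-labelled libraries than in the control libraries, with no recovery and after 7 days, and the counting interval of every fold lay above 1, as it did for 72.6% of all genes with no recovery and 73.5% after 7 days. With no recovery 9 of the 10 were at least 2-fold higher on the log2(CPM + 1) scale, while 33.1% of all genes were called higher and 4.35% lower by the same rule. After 7 days 9 of the 10 were again at least 2-fold higher, against 32.3% of all genes higher and 3.32% lower. Tgfbr3 with no recovery and Tgfbr1 after 7 days lay just under the threshold. At both times 8 of the 10 genes were called higher, against 26.9% of all genes, and 0 of the 10 were 2-fold lower. The 10 genes had a median difference of 1.81 with no recovery and 2.18 after 7 days, compared with 0.65 and 0.61 over all genes. Under median-ratio scaling all 10 differences stayed above 0 and their medians were 1.16 and 1.55. Of the 10, 7 were then 2-fold higher at each time, against 17.3% of all genes with no recovery and 20.0% after 7 days.

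**Figure D1:**
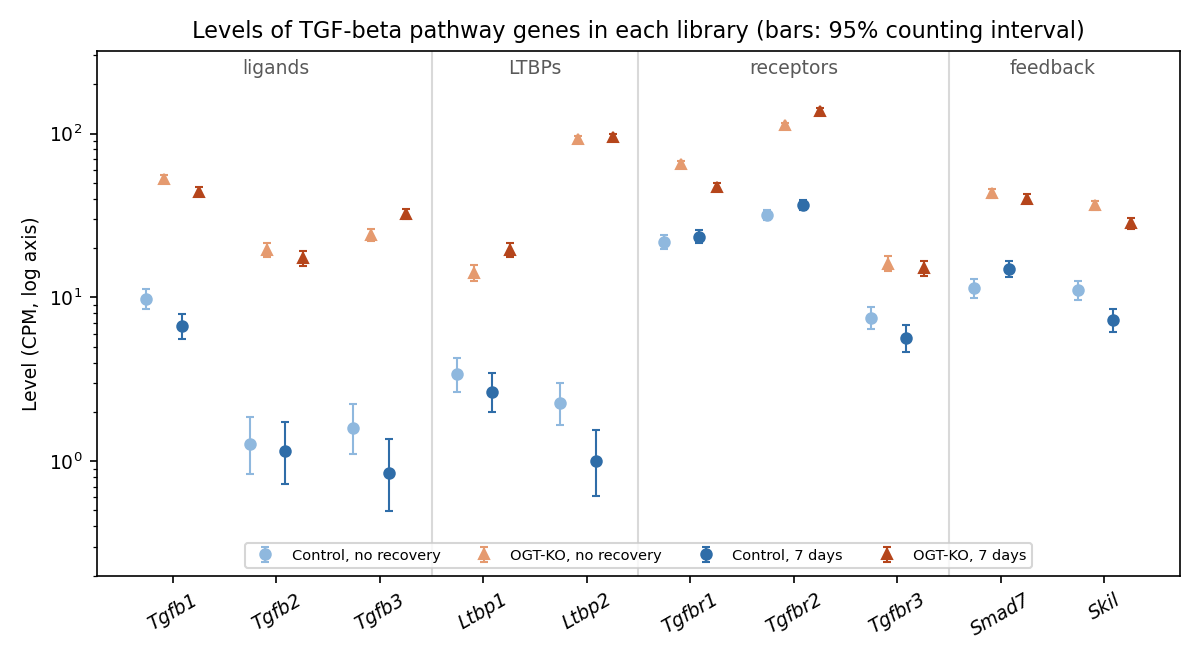
Level of each gene in each library in CPM on a log axis, grouped by role, with circles for the control libraries, triangles for the OGT-KO-labelled libraries and bars for 95% counting intervals. Both triangles lie above both circles for every gene, and the gap is widest for Ltbp2, at 1.001 to 2.26 CPM in the control libraries and 92.9 to 95.4 CPM in those labelled OGT-KO.

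Among the ligands, Tgfb1, the isoform most widely made in adult tissue, had 9.78 CPM in the control library and 52.6 CPM in the OGT-KO-labelled library with no recovery. After 7 days its levels were 6.66 and 44.1 CPM. The folds were 5.38 (4.64 to 6.26) and 6.63 (5.53 to 8.003). Both OGT-KO-labelled libraries were thus far above both control libraries, and the order held under median-ratio scaling, with log2 differences of 1.63 and 1.92.

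Tgfb2, a ligand that depends on the co-receptor encoded by Tgfbr3 for efficient binding, was close to the low end of the table in the control libraries. It had 1.27 CPM (27 reads) with no recovery and 1.15 CPM (23 reads) after 7 days, while the OGT-KO-labelled libraries had 19.5 and 17.3 CPM (445 and 390 reads). The folds were 15.3 (10.4 to 23.5) and 15.0 (9.86 to 24.0), so their intervals overlapped almost entirely. With so few control reads the size of these folds is known less well than that of Tgfb1.

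Tgfb3 likewise had 1.60 CPM (34 reads) and 0.851 CPM (17 reads) in the control libraries with no recovery and after 7 days. The OGT-KO-labelled libraries had 23.9 and 32.3 CPM, the only ligand of the 3 with the higher of these levels after recovery. With no recovery the fold was 15.0 (10.6 to 21.8), and after 7 days it was 38.0 (23.6 to 65.6). Those intervals do not overlap. Under median-ratio scaling the log2 differences of Tgfb3 were 2.68 and 3.68, those of Tgfb2 2.61 and 2.58.

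Per kilobase of exon, the make-up of the ligand RNA also differed between the labels. The summed ligand level was 2.63 CPM per kilobase in the control library and 20.9 CPM per kilobase in the OGT-KO-labelled library with no recovery, and 1.77 and 21.3 CPM per kilobase after 7 days. Tgfb1 was 73.7% and 74.6% of that sum in the control libraries with no recovery and after 7 days. In the OGT-KO-labelled libraries its share was 50.01% with no recovery and 41.1% after 7 days. Tgfb3 went the other way, with 18.0% and 14.2% in the control libraries and 33.9% and 44.9% in those labelled OGT-KO, where after 7 days its level was 9.56 and that of Tgfb1 8.75 CPM per kilobase, with overlapping intervals. Tgfb2 made up 8.33% to 16.1% in the 4 libraries. These shares do not change with the scaling of a library.

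**Figure D2:**
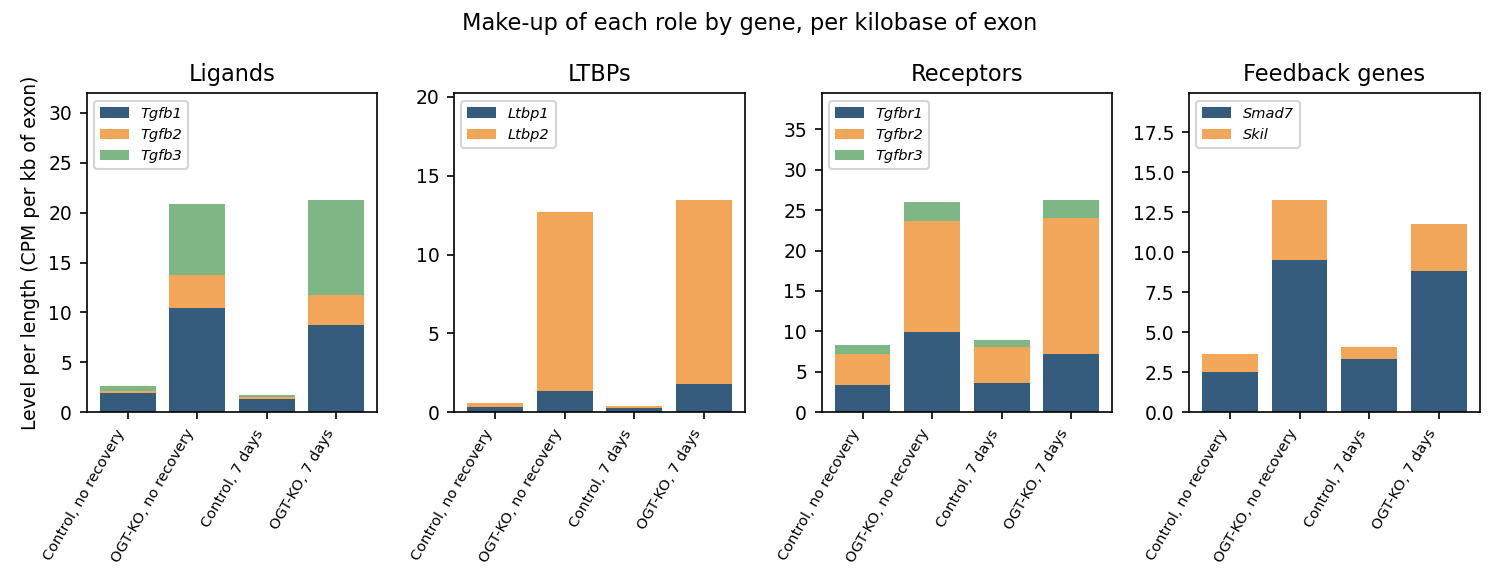
Stacked bars give the level per length (CPM per kilobase of exon) of the genes of each role in each of the 4 libraries, on linear axes that start at 0. Tgfb3 takes up 33.9% and 44.9% of the ligand bars labelled OGT-KO against 14.2% to 18.0% in the control bars, and Ltbp2 takes up 86.5% to 89.6% of the binding protein bars labelled OGT-KO against 33.0% to 46.5%.

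The binding protein genes stood further apart from each other than the ligands did. Ltbp2 encodes a large elastic fibre protein of the LTBP family that, unlike its relatives, does not bind the latent TGF-β complex covalently. It had 2.26 CPM (48 reads) in the control library and 92.9 CPM (2125 reads) in the OGT-KO-labelled library with no recovery, and 1.001 CPM (20 reads) and 95.4 CPM (2154 reads) after 7 days. Its folds of 41.2 (30.9 to 56.0) and 95.3 (61.6 to 156) were the largest of the 10 genes at each time. Among all 13903 genes its log2 difference ranked 24 from the highest with no recovery and 7 after 7 days.

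Ltbp1, which anchors latent TGF-β to the matrix, differed less. It had 3.39 CPM and 14.1 CPM with no recovery and 2.65 CPM and 19.4 CPM after 7 days, in the control library and the OGT-KO-labelled library. The folds were 4.17 (3.22 to 5.46) and 7.31 (5.49 to 9.92), and under median-ratio scaling the log2 differences were 1.16 and 1.91, against 4.23 and 5.08 for Ltbp2. Ltbp2 made up 46.5% and 33.0% of the summed binding protein level per kilobase in the control libraries and 89.6% and 86.5% in those labelled OGT-KO. An antisense gene, D030025P21Rik, covers 9.34% of the exon bases of Ltbp2, and reads of the antisense gene could not be told from its own if the counting ignored strand, which is not given in the sources used here. Overlapping exons of other genes cover 2.14% of those of Tgfb2, 4.82% and 7.60% of those of Tgfb3 and 4.54% of those of Tgfbr3.

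The receptor genes had smaller folds than the ligand and binding protein genes at each time, from 2.01 to 3.74. Tgfbr2, the type II receptor that binds the ligand, had 31.8 CPM and 36.7 CPM in the control libraries with no recovery and after 7 days, and 112.1 and 137.3 CPM in the OGT-KO-labelled libraries. It was 3.52-fold higher (3.24 to 3.84) with no recovery and 3.74-fold higher (3.45 to 4.06) after 7 days. Under median-ratio scaling its log2 differences were 1.08 and 1.20, just past the 2-fold threshold.

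Tgfbr1, the type I receptor whose kinase acts on SMAD2 and SMAD3, had 21.8 and 23.5 CPM in the control libraries and 64.9 and 47.1 CPM in those labelled OGT-KO. With no recovery its fold was 2.98 (2.68 to 3.31), and after 7 days 2.01 (1.80 to 2.24), with a log2(CPM + 1) difference of 1.53 and then 0.98, just under the threshold. Under median-ratio scaling these became 0.83 and 0.31. The type I receptor thus had the smaller label difference after recovery and the type II receptor did not.

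Tgfbr3 encodes betaglycan, a co-receptor without a kinase. It had 7.53 and 5.66 CPM in the control libraries and 16.05 and 15.02 CPM in those labelled OGT-KO. The folds were 2.13 (1.77 to 2.58) and 2.66 (2.14 to 3.31), and under median-ratio scaling the log2 differences were 0.34 and 0.65, the lowest of the 10 genes with no recovery. Of the summed receptor level per kilobase, Tgfbr2 made up 46.4% and 50.1% in the control libraries and 52.5% and 63.8% in those labelled OGT-KO, and Tgfbr1 39.8% and 40.2%, then 38.1% and 27.5%.

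Both feedback genes had higher levels in the OGT-KO-labelled libraries. Smad7, an inhibitory SMAD that is induced by TGF-β and blocks the type I receptor, had 11.3 and 15.0 CPM in the control libraries with no recovery and after 7 days, and 43.1 and 40.0 CPM in those labelled OGT-KO. Its fold was 3.80 (3.30 to 4.39) and then 2.67 (2.34 to 3.06), intervals that do not overlap. Skil, which encodes the SMAD co-repressor SnoN, had 11.0 and 7.26 CPM in the control libraries and 36.4 and 28.4 CPM in those labelled OGT-KO. It was 3.31-fold (2.86 to 3.84) and 3.91-fold (3.26 to 4.71) higher. Under median-ratio scaling the log2 differences of Smad7 were 1.15 and 0.70 and those of Skil 0.96 and 1.20, so each gene fell below the 2-fold threshold at a different time.

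**Figure D3:**
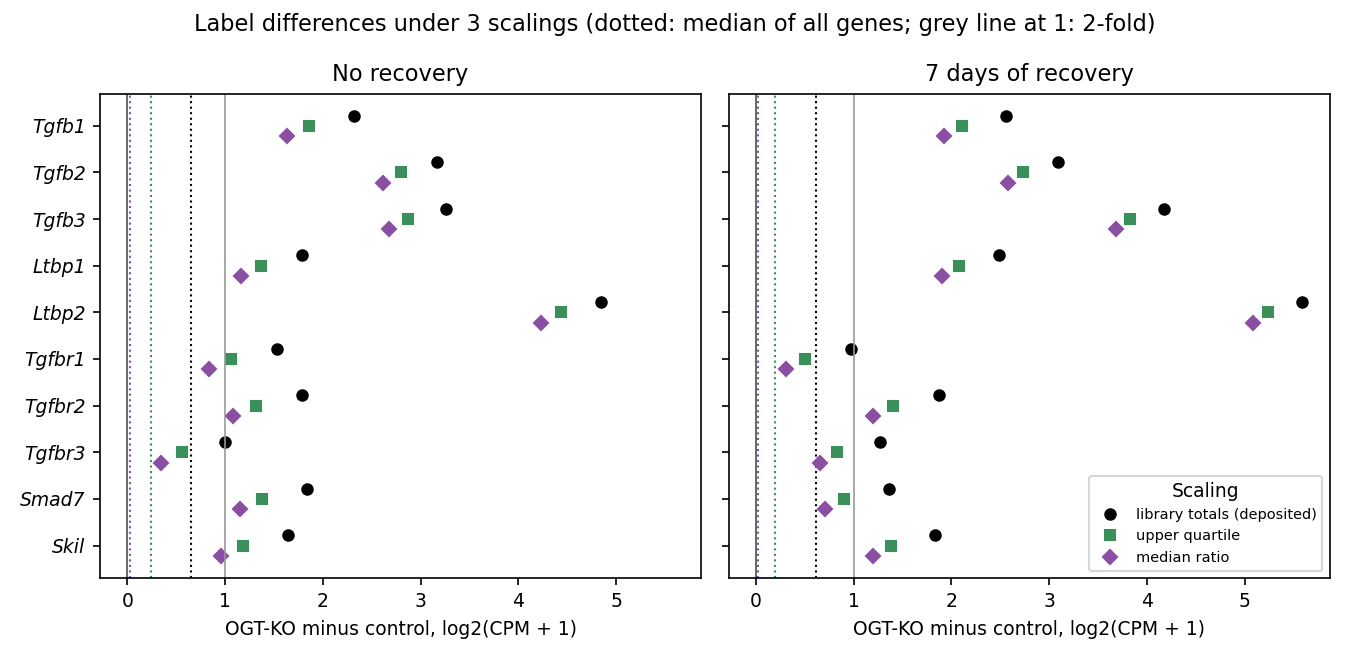
Label difference (OGT-KO minus control, log2(CPM + 1)) of each gene with no recovery and after 7 days, under the deposited library totals, upper-quartile and median-ratio scaling, with dotted lines at the median of all genes and a grey line at 2-fold. Every point lies above 0, Ltbp2 reaches 4.23 to 5.59 under the deposited and median-ratio scalings, and Tgfbr1 after 7 days is lowest at 0.31 under median-ratio scaling.

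Ranked per kilobase of exon, Tgfbr2 stood first of the 10 genes in all 4 libraries, at 3.88 CPM per kilobase in the control library and 13.7 CPM per kilobase in the OGT-KO-labelled library with no recovery, and at 4.48 and 16.8 CPM per kilobase after 7 days. In the control library with no recovery it was followed by Tgfbr1 at 3.33 and Smad7 at 2.51 CPM per kilobase, and the counting intervals of Tgfbr2 and Tgfbr1 overlapped. Ltbp2 stood in place 9 there and in place 10 after 7 days, at 0.276 and 0.122 CPM per kilobase. The intervals of neighbouring genes in places 7 to 10 overlapped at both times, so neighbours among Tgfb3, Ltbp1, Ltbp2 and Tgfb2 could not be told apart in the control libraries. In the OGT-KO-labelled libraries, Ltbp2 stood in place 2, at 11.4 and 11.7 CPM per kilobase. With no recovery it was followed by Tgfb1 at 10.4, Tgfbr1 at 9.93 and Smad7 at 9.53 CPM per kilobase, each overlapping its neighbour. After 7 days it was followed by Tgfb3 at 9.56 CPM per kilobase, whose interval overlapped that of Smad7 at 8.85. Ltbp1 stood in place 10 in both OGT-KO-labelled libraries.

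Over the 7 days of recovery the 10 genes differed by less than 2-fold within each label on the log2(CPM + 1) scale. Few genes of the table passed that threshold, so the count of 0 does not set the 10 apart: 0.223% of all genes were called higher and 0.964% lower in the control libraries, and 1.28% higher and 0.791% lower in the OGT-KO-labelled libraries. The median change was -0.31 in the control libraries, where the median of all genes was -0.047. In the OGT-KO-labelled libraries the medians were -0.097 and -0.018. Under median-ratio scaling the medians of the 10 genes were -0.29 and -0.026. Markers of some cell types were also lower over recovery in the control libraries. Median changes there were -1.20 for macrophages and monocytes, of which 6 of 8 were called lower, -0.54 for hepatic stellate cells, -0.51 for endothelial cells and -0.47 for myofibroblasts. In the OGT-KO-labelled libraries the medians were, in the same order, -0.46, 0.073, -0.48 and -0.065. Cholangiocyte markers had medians of 0.26 in the control and 0.35 in the OGT-KO-labelled libraries. The part of these markers in the values of the 10 genes was not tested. Since the same 4 libraries give the recovery and the label differences, these are not independent.

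In the control libraries 7 of the 10 genes were lower after 7 days, where the median change of all genes was also below 0, at -0.047. The counting interval lay below 1 for 5 of the 10, while it did for 25.1% of all genes and lay above 1 for 12.2%. Ltbp2 had 0.443 times its level with no recovery (0.249 to 0.762), Tgfb3 0.532 times (0.279 to 0.979), Skil 0.660 times (0.532 to 0.815), Tgfb1 0.681 times (0.543 to 0.8501) and Tgfbr3 0.752 times (0.585 to 0.962). Smad7 and Tgfbr2 were the genes with an interval above 1, at 1.32 times (1.11 to 1.57) and 1.15 times (1.04 to 1.28). Among all genes in the control libraries, the change of Ltbp2 stood at percentile 3.11, those of Skil, Tgfb1 and Tgfb3 at 6.08, 7.37 and 7.49, and that of Smad7 at 95. The values of Ltbp2 and Tgfb3 rest on 17 to 48 reads in each control library.

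In the OGT-KO-labelled libraries the directions were split otherwise, with 3 counting intervals above 1 and 3 below, against 24.5% and 27.7% of all genes. Tgfb3 had 1.35 times its level with no recovery (1.21 to 1.51), Ltbp1 1.37 times (1.19 to 1.59) and Tgfbr2 1.23 times (1.16 to 1.29). Tgfbr1 had 0.727 times its level (0.671 to 0.787), Skil 0.778 times (0.701 to 0.864) and Tgfb1 0.839 times (0.771 to 0.913). The interval of Ltbp2, 0.967 to 1.09 around 1.03, held equality. Tgfb3 therefore was lower after 7 days in the control libraries and higher in those labelled OGT-KO, and Tgfb1 and Skil were lower in both. The label difference of Tgfb3 was larger after 7 days by 0.91, that of Ltbp2 by 0.74 and that of Ltbp1 by 0.70 on the log2(CPM + 1) scale. Those of Tgfbr1 and Smad7 were smaller, with values after 7 days minus no recovery of -0.56 and -0.48. Whether these differences between times exceed the spread between mice could not be tested.

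**Figure D4:**
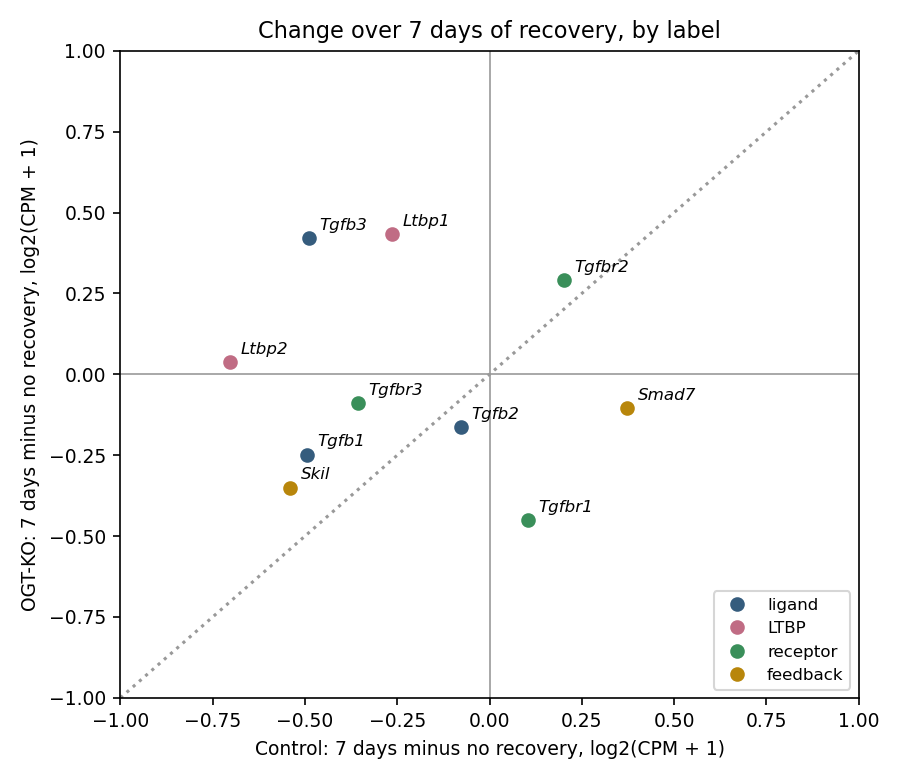
Change over 7 days of recovery (7 days minus no recovery, log2(CPM + 1)) in the control libraries on the x axis and in the OGT-KO-labelled libraries on the y axis, 1 point per gene, coloured by role, with equal changes on the dotted line. All 10 points lie within 1 of zero on both axes, with Tgfb3 and Ltbp1 highest on the y axis at 0.42 and 0.43 and Tgfbr1 lowest at -0.45.

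The cells that the RNA came from were not separated, and in whole liver more cells of a type and more RNA per cell cannot be told apart. Marker lists of the liver's cell types are therefore given beside the pathway genes. Their counts of calls stand beside 33.1% of all genes called higher with no recovery and 32.3% after 7 days. Counts under median-ratio scaling stand beside 17.3% and 20.0%. Markers of hepatic stellate cells summed to 131 CPM in the control library and 577 CPM in the OGT-KO-labelled library with no recovery, and to 81.1 and 629 CPM after 7 days, and 8 of 8 genes were called higher at both times, or 5 and 7 under median-ratio scaling. Myofibroblast markers summed to 69.3 and 1844 CPM and to 48.1 and 2243 CPM, with 6 of 6 higher under both scalings, though 5 of these 6 genes are also in the list of TGF-β target genes. Cholangiocyte markers summed to 53.9 and 1157 CPM and to 69.9 and 1469 CPM, with 6 of 6 higher under both scalings. Most of each sum was 1 gene, Spp1, with 41.0 and 977 CPM and then 52.1 and 1245 CPM. For macrophages and monocytes the sums were 232 and 778 CPM and then 87.5 and 559 CPM, with 7 of 8 higher at each time, or 6 and 7 under median-ratio scaling.

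Smaller or opposite differences were found for endothelial and hepatocyte markers. The 8 endothelial markers summed to 201 and 372 CPM with no recovery and 141 and 264 CPM after 7 days, and 4 and 2 of them were called higher. Under median-ratio scaling 1 was at each time, and the list's median differences of 1.01 and 0.79 became 0.33 and 0.15. The 6 hepatocyte markers were the main RNA of the list set, with sums of 72706 and 52068 CPM and of 80964 and 63843 CPM. Of these, 3 were called lower with no recovery and 2 after 7 days, against 4.35% and 3.32% of all genes. Under median-ratio scaling 5 and 4 were, against 11.7% and 9.01% of all genes, and the median differences of -1.11 and -0.68 became -1.82 and -1.36. Alb, the albumin gene, had 47845 and 41362 CPM and then 54434 and 51507 CPM, so this defining liver RNA was abundant in all 4 libraries. Hnf4a, a transcription factor of hepatocyte identity, had 851 and 335 CPM and then 864 and 458 CPM. Of blood cell markers, those of neutrophils summed to 5.50 and 29.4 CPM and then 2.20 and 44.8 CPM. Under both scalings 3 and then 4 of these 4 were called higher. Those of lymphocytes summed to 1.30 to 5.82 CPM and those of platelets, which store TGF-β1 protein, to 3.48 to 10.9 CPM over the 4 libraries. No cell type marker found in the table was at 0 CPM in any library. The part of these cell type differences in the levels of the 10 genes was not tested.

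The rest of the pathway was described by 6 lists of 86 genes, of which 84 were in the table. Of these 84, 53 were called higher and 2 lower with no recovery, 54 and 3 after 7 days, and 49 were higher at both times. The shares over all genes were 33.1%, 32.3% and 26.9% higher, and 4.35% and 3.32% lower with no recovery and after 7 days. Under median-ratio scaling 35 were higher and 5 lower with no recovery and 44 and 6 after 7 days. The shares over all genes were then 17.3% and 20.0% higher and 11.7% and 9.01% lower. The counts of the single lists stand beside the same shares. The medians over the 84 genes were 1.44 and 1.70, and under median-ratio scaling 0.75 and 1.09. The lists differed in where they stood, and those of other receptors of the superfamily and of signal transducers had medians nearest to that of all genes.

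In the list of latency and activation genes, 15 of 17 were called higher at each time, the same 15 genes, with medians of 1.61 and 2.02 that became 0.91 and 1.35 under median-ratio scaling, where 8 and 13 were called higher. The largest differences were those of Fbn1, the fibrillin of the microfibrils that LTBPs bind, with 2.73 and 94.2 CPM with no recovery and 2.45 and 110.1 CPM after 7 days. Mmp2, a matrix metalloproteinase, had 3.34 and 57.6 CPM and then 2.85 and 94.4 CPM. Furin, the protease that cuts the TGF-β propeptide, had 328 and 322 CPM and then 327 and 342 CPM. Bmp1, a protease that cleaves LTBP1, had 131 and 128 CPM and then 133 and 120 CPM. The latter pair were the genes not called.

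Of the 8 other receptors of the superfamily, 1 was called higher with no recovery and 3 after 7 days, and the medians of 0.78 and 0.76 became 0.072 and 0.096 under median-ratio scaling, where 1 was called higher at each time. Acvrl1, the endothelial type I receptor ALK1, was highest in difference, with 3.43 and 15.1 CPM and then 3.15 and 13.0 CPM. Eng, endoglin, had 78.7 and 139.7 CPM and then 53.3 and 153 CPM. The activin type II receptor genes stood lowest, Acvr2a with 19.7 and 25.0 CPM and then 22.2 and 24.2 CPM, and Acvr2b with 3.29 and 2.71 CPM and then 3.45 and 2.88 CPM.

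The 8 signal transducers were similar, with 3 higher with no recovery, 2 after 7 days and medians of 0.75 and 0.76, or 0.057 and 0.10 under median-ratio scaling, where 1 was called higher at each time. These shares lie near those of all genes. Smad3, the SMAD through which many fibrosis genes are induced, had 20.6 and 58.95 CPM and then 12.7 and 53.6 CPM. Tab1, a partner of the kinase TAK1, had 4.70 and 18.0 CPM and then 6.26 and 18.8 CPM. Map3k7, which encodes TAK1, had 44.9 and 44.6 CPM and then 42.9 and 43.1 CPM, and Zfyve9, which encodes the SMAD anchor SARA, had 23.1 and 22.7 CPM and then 24.2 and 20.9 CPM.

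Of 14 other negative regulators, 9 were called higher with no recovery and 8 after 7 days, with medians of 1.20 and 1.33, or 0.57 and 0.69 under median-ratio scaling, where 5 were called higher at each time. Pmepa1, a TGF-β-induced inhibitor of SMAD activation, had 3.904 and 53.7 CPM and then 3.30 and 63.9 CPM. Dcn, the matrix proteoglycan decorin that can bind TGF-β, had 83.2 and 391 CPM and then 57.4 and 327 CPM. Ppm1a, a SMAD phosphatase, had 111 and 105 CPM and then 111 and 95.2 CPM, and Smurf2, a ubiquitin ligase that acts with SMAD7 on the type I receptor, had 41.9 and 50.3 CPM and then 43.3 and 48.7 CPM.

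Target genes stood highest, with 16 of 20 called higher and 1 lower with no recovery, 15 and 1 after 7 days, and medians of 3.55 and 3.30 that became 2.92 and 2.73 under median-ratio scaling, where 15 were called higher at each time. Col1a1, the collagen I chain of scar matrix, had 20.98 and 875 CPM with no recovery and 16.5 and 1192 CPM after 7 days. Eln, elastin, had 5.88 and 156 CPM and then 3.60 and 351 CPM. Fn1, fibronectin, which hepatocytes also secrete into plasma, had 1742 and 2096 CPM and then 2069 and 2177 CPM. The gene called lower at both times was Nox4, an NADPH oxidase, with 35.6 and 3.499 CPM and then 40.4 and 4.83 CPM. Over recovery 3 target genes were called lower in each label, with 1 higher in the OGT-KO-labelled libraries, against 0.964% of all genes lower in the control libraries and 0.791% lower and 1.28% higher in those labelled OGT-KO. Among them was Ccn2, connective tissue growth factor, chosen here after its values were seen, with 8.14 and 146 CPM with no recovery and 3.00 and 66.7 CPM after 7 days. It thus was lower after 7 days in each label while its label difference was above 2-fold at both times.

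Among 17 activin and BMP ligands and antagonists, 9 were called higher and 1 lower with no recovery, and 11 and 2 after 7 days. The medians were 1.17 and 1.66, or 0.46 and 1.13 under median-ratio scaling. Under that scaling 5 were called higher and 4 lower with no recovery, and 9 and 5 after 7 days. The shares of all genes called lower were then 11.7% and 9.01%. Fstl1, a follistatin-like secreted glycoprotein, had 6.77 and 151 CPM and then 3.45 and 202 CPM. Gdf15, a stress-induced member of the superfamily, had 5.22 and 85.0 CPM and then 4.76 and 42.1 CPM. In the opposite direction, Chrd, which encodes the BMP antagonist chordin, had 11.5 and 5.29 CPM and then 12.5 and 5.72 CPM.

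**Figure D5:**
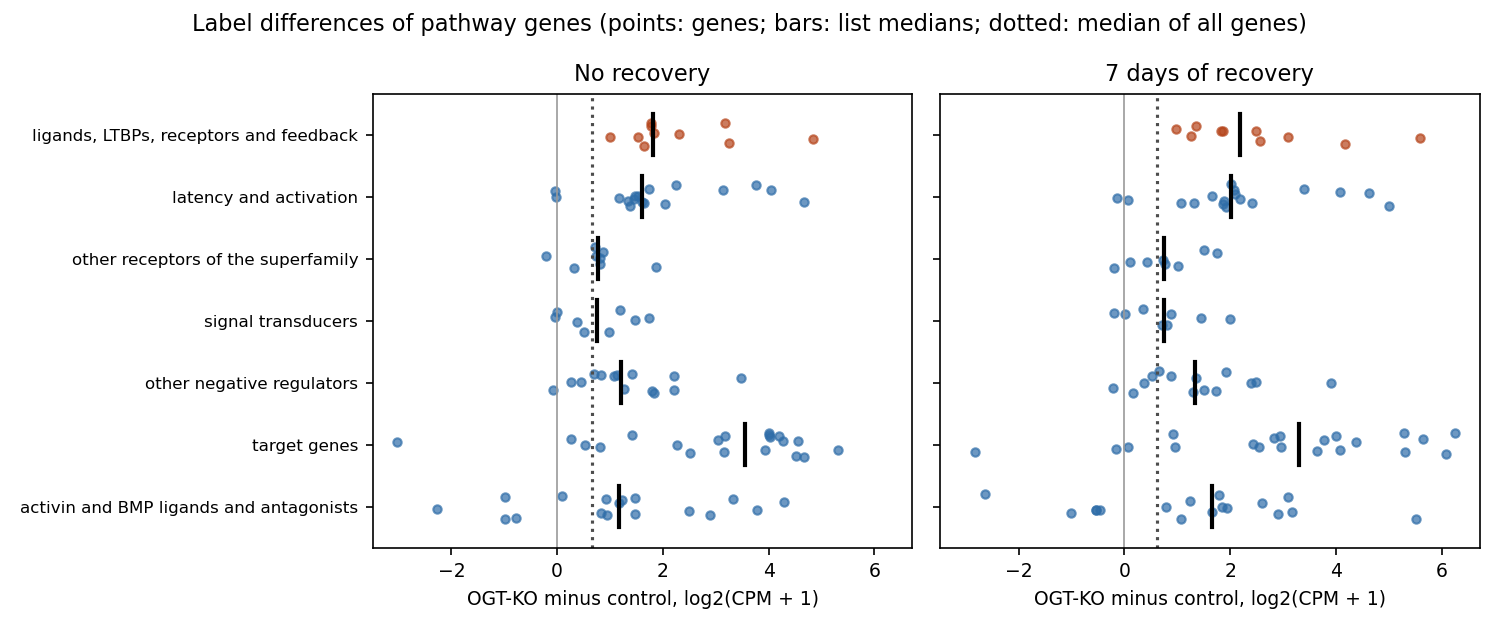
Label differences (OGT-KO minus control, log2(CPM + 1)) of the 10 genes and of the genes of 6 pathway lists with no recovery and after 7 days, 1 point per gene, with a bar at each list's median and a dotted line at the median of all genes. The medians of the target genes, 3.55 and 3.30, lie farthest to the right, and those of the other receptors and signal transducers, 0.75 to 0.78, lie next to the dotted line.

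Genes with the pattern most like each ligand over the 4 libraries were found by the Euclidean distance of log2(CPM + 1), each gene less its own mean, among genes whose mean reached 10 CPM. Nearest to Tgfb1 were Col12a1 (distance 0.065), Dcn (0.085) and Rab8b (0.090), and 235 of the 8962 genes compared lay within 0.5 of it. Tgfb2 was nearest to Ccdc88c (0.11), App (0.14) and Rap1gap (0.14), with 131 of 8963 genes within 0.5. For Tgfb3 the nearest were Ptk7 (0.13), Itpr3 (0.16) and Krt19 (0.21), with 60 of 8962 within 0.5. Many genes share each pattern over only 4 libraries, so closeness here describes the libraries.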

How the data were processed

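Liver mRNA was sequenced in 4 libraries, 1 per condition, each from the pooled RNA of 3 mice. The authors deposited CPM for 13903 genes, although the table is named for DESeq2 normalization, and every column sums to 1000000. Whole reads were recovered from the CPM steps, and 100% of values lay within 0.01 of a whole number. The submitters' processing notes list STAR, DESeq2 and GRCm39 without versions. The counting tool, its use of strand, the annotation and the filter on listed genes are not given in the sources used here.

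Differences are of log2(CPM + 1), which understates the change of low genes, and were called at 2-fold over all genes with no filter. Of the 10 genes, 8 had a mean of at least 10 CPM. Lengths are merged exons of GENCODE M21, used only to give CPM per kilobase. Promoter windows came from RefSeq (GRCm38.p6). Python 3.11, numpy 2.4.6, pandas 2.3.3, scipy 1.17.1 and matplotlib 3.10.9 were used, and steps were tested on simulated reads.

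The 10 genes, the lists and the alternatives were chosen with earlier results of these data known. Named besides the 10 genes and Ogt were, from each pathway list, the 2 genes with the highest and the 2 with the lowest mean label difference (mean of at least 1 CPM), the 3 genes nearest each ligand, and from the cell type lists the genes of highest and lowest level, of which only those of hepatocytes and Spp1 of cholangiocytes are printed. Some genes that this rule names are not reported here. Of the listed genes, 7 were not analysed here. Alternatives were pseudocounts of 0.1 and 10, means of at least 10 and 50 CPM, 3 other scalings, a 4-fold threshold and an exact binomial test on reads. Numbers of reads limit the precision, as the intervals show.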

Additional observations from a re-analysis of the deposited data

Results flagged for a closer look

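The label differences of 2 genes of the activin and BMP list ran in opposite directions at the 2 times, with counting intervals on opposite sides of equality. Inhbe, which encodes the hepatocyte activin subunit βE, had 47.6 CPM in the control library and 108 CPM in the OGT-KO-labelled library with no recovery, and 84.5 and 58.2 CPM after 7 days. Its log2(CPM + 1) differences were 1.17 and -0.53, or 0.46 and -1.21 under median-ratio scaling. Bmp7, a BMP ligand, had 4.66 and 2.32 CPM with no recovery and 1.90 and 8.20 CPM after 7 days, with differences of -0.77 and 1.66, or -1.31 and 1.13 under median-ratio scaling. With 1 library per condition the difference between the times was not tested for either gene.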

How the results depend on the processing

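No paired analysis was possible because each condition has 1 library, and for the same reason no replicate could be left out. Of the 10 genes, 9 were at least 2-fold higher at each time. These counts became 4 with no recovery and 5 after 7 days at a 4-fold threshold. Among genes whose mean reached 50 CPM the count was 1 at each time. Only Tgfbr2 of the 10, with a mean of 79.5 CPM, was left to count there, so no call was lost by level. With a pseudocount of 0.1, 1 of the 10 (Ltbp2, -1.10) was 2-fold lower over recovery in the control libraries, where none was otherwise. The share of all genes called lower there also rose, from 0.964% to 4.39%. No direction of a label difference of the 10 genes turned under another pseudocount or scaling. Calls were lost for Ltbp1 with no recovery (0.85) and Tgfbr3 after 7 days (0.68) with a pseudocount of 10, for Tgfbr1 (0.83) and Skil (0.96) with no recovery and Tgfbr3 (0.65) and Smad7 (0.70) after 7 days under median-ratio scaling, and for Tgfbr3 (0.83) and Smad7 (0.90) after 7 days under upper-quartile scaling. They were gained for Tgfbr3 with no recovery (1.08) and Tgfbr1 after 7 days (1.003) with a pseudocount of 0.1. With that pseudocount 39.8% and 38.5% of all genes were called higher with no recovery and after 7 days. The share of all genes called higher with no recovery, 33.1%, was 21.1% under upper-quartile and 17.3% under median-ratio scaling, 11.1% with a pseudocount of 10, 16.3% with a mean of at least 50 CPM and 9.71% at 4-fold, and the share called lower, 4.35%, was 8.35%, 11.7% and 10.9% under the 2 scalings and the mean of at least 50 CPM and 1.36% at 4-fold. After 7 days the share higher, 32.3%, was 20.0% under median-ratio scaling, 11.5% with a pseudocount of 10, 15.6% with a mean of at least 50 CPM and 12.1% at 4-fold, and the share lower, 3.32%, was 6.34% under upper-quartile and 9.01% under median-ratio scaling, 8.73% with a mean of at least 50 CPM and 0.762% at 4-fold. The cause was not tested beyond what the construction of each alternative shows. The exact binomial test on reads, a comparison of libraries rather than conditions, removed no 2-fold call of the 10 genes. It also left the shares of all genes called higher at 33.1% with no recovery and 32.3% after 7 days. The test therefore could not set the 10 apart. At 17 to 48 control reads, the folds of Tgfb2, Tgfb3 and Ltbp2 are the least precise.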
